A study of Mus musculus with 86 samples.

Results

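Rgs5, Vcam1, S1pr3, Cald1, Tagln, Fhl2 and Sparcl1 are a set of 7 genes used as markers of mural cells, smooth muscle or stroma. They were followed through 86 single cells of the mouse metanephros, the embryonic kidney. The members are the rows of the deposited expression table that carry these 7 symbols, and they take 8 of its 12360 rows, because Cald1 has 2. The genes were picked because they had been higher in groups of cells rich in stroma genes in an earlier clustering of these same cells. That they are found together, and in cells with stroma genes, is therefore in part fixed by the choice and is given here as a description. The cells came from wild type kidneys at 12.5 days post coitum (Theiler stage 20), on a mixed strain background, with males and females pooled. A trypsin suspension of the pooled kidneys was run on a Fluidigm C1 instrument, in which each cell is captured and lysed in its own chamber. No cell was labelled or sorted by type. All 86 cells stem from 1 pool and count as 1 sample, so no difference was tested, and intervals around shares of cells cover counting error only.

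Mural cells are the pericytes and smooth muscle cells that wrap blood vessels. In the mouse kidney many of them descend from the stroma that expresses the forkhead factor Foxd1, while the nephrons descend from the cap mesenchyme, which expresses the homeobox factor Six2. Rgs5 speeds up the GTP hydrolysis of G protein alpha subunits and is widely used to mark pericytes. S1pr3 is a receptor for the lipid sphingosine 1-phosphate and signals through such G proteins. Cald1 (caldesmon) and Tagln (transgelin) bind actin and are abundant in smooth muscle. Fhl2 is a LIM-domain scaffold protein, Vcam1 is an adhesion molecule that binds integrins, and Sparcl1 is a secreted matrix-associated glycoprotein.

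Promoter windows of members were taken from RefSeq on the build GRCm38.p6, running from 250 bases before a transcript start to 50 bases after it. Rgs5, S1pr3, Cald1 and Fhl2 matched by symbol, with 6 windows in all. The CArG box (CC, then 6 bases that are each A or T, then GG) is the sequence bound by serum response factor at many smooth muscle genes. Both Fhl2 windows hold one, and the other 4 member windows hold none. Among all 32841 windows of this length, 1.63% hold one on either strand. The first Fhl2 window is chr1:43196712-43197011 and the other is chr1:43163912-43164211, both on the minus strand. They are shown because of this match, with the CArG box in capitals. In the first window the box starts 96 bases before the transcript start, and in the other 31 bases before it.
Fhl2 window 1: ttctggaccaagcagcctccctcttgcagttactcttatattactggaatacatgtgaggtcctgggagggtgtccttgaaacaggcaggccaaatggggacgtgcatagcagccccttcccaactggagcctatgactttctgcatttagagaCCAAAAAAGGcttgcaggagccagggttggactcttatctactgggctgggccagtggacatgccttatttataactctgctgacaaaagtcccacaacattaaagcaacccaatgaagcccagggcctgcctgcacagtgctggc
Fhl2 window 2: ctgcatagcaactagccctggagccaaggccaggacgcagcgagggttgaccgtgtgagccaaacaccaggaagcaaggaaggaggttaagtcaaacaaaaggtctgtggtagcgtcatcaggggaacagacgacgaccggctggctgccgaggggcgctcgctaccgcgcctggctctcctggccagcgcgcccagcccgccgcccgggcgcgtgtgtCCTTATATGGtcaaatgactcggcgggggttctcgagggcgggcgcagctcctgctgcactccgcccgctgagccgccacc

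The Cald1 windows, chr6:34598254-34598553 and chr6:34709194-34709493 on the plus strand, are shown because the 2 deposited Cald1 rows gave different detection. The Rgs5 window, chr1:169655251-169655550 on the plus strand, is shown because Rgs5 was the member with the highest level. None of these 3 has letters in capitals, since none holds a CArG box.
Cald1 window 1: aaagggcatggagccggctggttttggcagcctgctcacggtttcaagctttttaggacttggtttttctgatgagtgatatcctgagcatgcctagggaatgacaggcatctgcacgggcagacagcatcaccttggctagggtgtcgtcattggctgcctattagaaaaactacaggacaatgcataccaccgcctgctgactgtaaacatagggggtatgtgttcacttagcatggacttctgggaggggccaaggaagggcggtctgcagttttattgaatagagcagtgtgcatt
Cald1 window 2: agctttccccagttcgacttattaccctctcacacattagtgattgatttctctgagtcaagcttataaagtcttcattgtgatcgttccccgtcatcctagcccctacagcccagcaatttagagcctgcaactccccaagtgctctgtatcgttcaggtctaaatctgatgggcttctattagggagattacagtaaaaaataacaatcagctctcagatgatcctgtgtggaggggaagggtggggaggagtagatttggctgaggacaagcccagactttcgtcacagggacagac
Rgs5 window: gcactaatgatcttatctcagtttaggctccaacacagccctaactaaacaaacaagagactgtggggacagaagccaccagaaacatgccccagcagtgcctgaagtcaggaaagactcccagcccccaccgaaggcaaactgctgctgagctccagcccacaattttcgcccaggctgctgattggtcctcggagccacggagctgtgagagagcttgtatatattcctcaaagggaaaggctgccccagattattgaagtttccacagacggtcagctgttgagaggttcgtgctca

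A site for the Notch effector RBPJ (GTGGGAA, searched on both strands) is in 6.38% of all windows. It was not found in the 6 member windows, which says only that these letters are not there.

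Levels are RPKM (reads divided by the length of the gene and by the mapped reads of that cell), and an RPKM of 1 or more counted as detection. Per cell, the genes detected ranged from 3458 to 7100 with a median of 6164. The read totals of the cells are not in the sources used here. Many low RPKM values are whole multiples of what 1 read is worth, and the values that cells share in this way gave their depth relative to each other, which ranged from 0.152 to 3.07 times the median. For Rgs5, 1 read was worth a median of 0.275 RPKM, and from 0.0895 to 1.81 RPKM over the cells. In the shallowest cells a single read therefore passes the limit of 1. Markers of other cell types were few: of the endothelial list only Emcn, Cldn5, Egfl7 and Plvap could be read, and of the macrophage list only Cd68. Defining genes such as Pecam1, Cdh5 and Ptprc were not among the listed genes. A gene was listed where 3 or more cells passed an RPKM of 3. A set of 8 cells detected at least 6 of 14 ureteric bud genes.

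Rgs5 (gene 19737, chromosome 1, 171585632 to 171623657, mm9) was either plainly present or close to 0. It was detected in 35 of 86 cells (40.7%, exact Clopper-Pearson 95% interval 30.2 to 51.8%). Over all cells its RPKM had a lowest value of 0, a median of 0.502 and a highest value of 1019. Of the 86 cells, 25 had none, 26 lay between 0 and 1, only 2 lay between 1 and 3, and 31 were at 10 or above. Among the cells below the limit with any Rgs5, about 3 reads was the most that was found. The values just inside and just outside the limit were 1.11 and 0.954. A few cells carried most of the signal: 15 cells were at 100 or above, and the 4 highest cells held 54.9% of the summed Rgs5.

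S1pr3 (gene 13610, chromosome 13, 51503987 to 51518166) was detected in 39 cells (45.3%, 34.6 to 56.5%), more than any other member apart from Cald1. Its median was 28.5 RPKM where detected and its highest value was 260. It showed the same gap as Rgs5, with 21 cells at 0, 26 between 0 and 1, and 2 between 1 and 3. Of its 65 values above 0, all 65 were whole numbers of reads within 0.05, and 20 of them were single reads. This did not hold for every member: 43 of 61 values of Rgs5 and 40 of 85 of Cald1 row 2 were whole.

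Cald1 was listed as 2 overlapping rows whose starts lie 110900 bases apart in mm9, on chromosome 6. Row 1 runs from 34548544 to 34696015 and row 2 from 34659444 to 34725469, so reads in the 36572 bases they share could belong to either. The RefSeq transcript starts of the windows above lie 110940 bases apart in GRCm38.p6. Row 2 was detected in 74 cells (86.0%, 76.9 to 92.6%), with a median of 29.0 RPKM where detected and a highest value of 293. Row 1 was detected in 36 cells (41.9%, 31.3 to 53.0%), with a median of 23.2 where detected and a highest value of 159. Row 2 was thus close to general in these cells, and row 1 was as restricted as Rgs5. Of the 36 cells with row 1, 34 also detected row 2. The counts of members per cell below use row 1.

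Tagln (gene 21345, chromosome 9, 45737711 to 45744141) stood apart as the rarest member. It was detected in 6 cells (6.98%, 2.60 to 14.6%), at 28.2 to 79.1 RPKM, and was listed at 0 in 77. No cell lay between 1 and 3. It was high where present and at or near 0 in the other cells.

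Fhl2, Vcam1 and Sparcl1 were each found in about as many cells as Rgs5. Fhl2 (gene 14200, chromosome 1, 43179919 to 43253606) was detected in 33 cells (38.4%, 28.1 to 49.5%), with a median of 41.4 RPKM where detected and a highest value of 324. Vcam1 (gene 22329, chromosome 3, 115812938 to 115832606) was detected in 32 cells (37.2%, 27.0 to 48.3%), with a median of 20.8 where detected and a highest value of 357. Sparcl1 (gene 13602, chromosome 5, 104508128 to 104543107) was detected in 29 cells (33.7%, 23.9 to 44.7%), with a median of 14.9 where detected and a highest value of 238. Per length, Rgs5 had the highest median among these, 85.2 RPKM in its cells. Foxd1 was lower than any of these members where detected, with a median of 8.95 RPKM in 59 cells, and Six2 had a median of 31.6 in 49 cells.

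**Figure D1:**
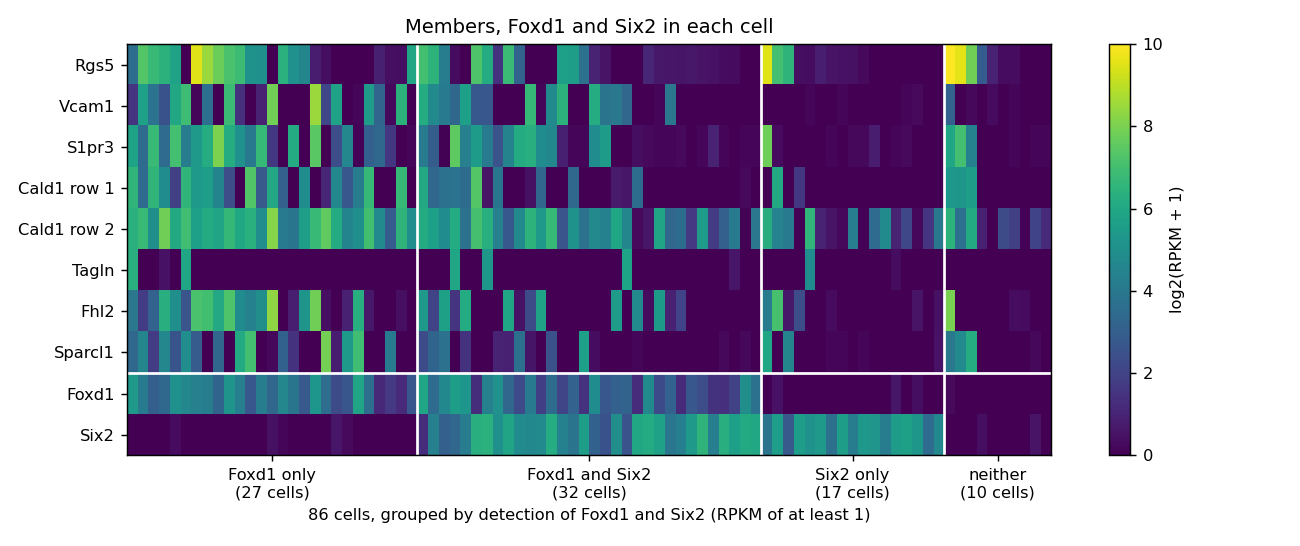
Level of each member row, Foxd1 and Six2 in each of the 86 cells, as log2(RPKM + 1) on the colour scale, with 1 column per cell. Cells are grouped by detection of Foxd1 and Six2 and, within a group, ordered by the number of members detected; Cald1 row 2 is present in most columns, while Tagln is in 6.

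The members were often, but not always, in the same cells. Of the 86 cells, 25 detected none of the 7 members, 26 detected at least 4, 9 detected at least 6 and 1 detected all 7. Between these lay 7 cells with 1 member, 13 with 2 and 15 with 3. With Cald1 taken from either row, 8 cells detected none. The cells with 0 members and those with 6 had like medians of detected genes, 6005 and 6184. The medians of relative depth were 1.06 and 0.881. The cell with all 7, cell 16, had Tagln at 79.1, Cald1 row 1 at 93.5 and Foxd1 at 42.0 RPKM, while its Rgs5 was only 11.4.

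The overlap was large for many pairs, among them Rgs5 with Sparcl1, Rgs5 with S1pr3 and Cald1 row 1 with Fhl2. Sparcl1 was detected in 22 of 35 cells with Rgs5 (62.9%) and in 7 of 51 cells without (13.7%). S1pr3 was detected in 24 of 35 cells with Rgs5 (68.6%) and in 15 of 51 without (29.4%). Fhl2 was detected in 25 of 36 cells with Cald1 row 1 (69.4%) and in 8 of 50 without (16.0%). These pairs did not form separate groups. Cald1 row 1 was detected in 23 of 35 cells with Rgs5 (65.7%) and in 13 of 51 without (25.5%). It was also in 26 of 39 cells with S1pr3 (66.7%) and in 10 of 47 without (21.3%). Sparcl1 and S1pr3 were thus found in most cells with Rgs5, and in the minority of the rest. Over all cells, Spearman's rho was 0.50 for Cald1 row 1 with Fhl2, 0.41 for S1pr3 with Fhl2 and 0.41 for Rgs5 with S1pr3. These correlations are across cells that share 1 pool and 1 library protocol, and they have no p-value.

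Vcam1 did not follow Rgs5. Vcam1 was detected in 15 of 35 cells with Rgs5 (42.9%) and in 17 of 51 without (33.3%), and rho between their levels was 0.06. The 15 cells with both compare with 13.0 that the product of their shares gives. The 3 cells with the highest Vcam1, cells 19, 45 and 38, had 357, 231 and 118 RPKM of it, and their Rgs5 was 0.692, 0 and 0. Vcam1 and S1pr3 were more often together: S1pr3 was in 25 of 32 cells with Vcam1 (78.1%) and in 14 of 54 without (25.9%), with rho at 0.38. S1pr3 was thus shared by cells with Rgs5 and cells with Vcam1.

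Among Rgs5, Vcam1, S1pr3, Cald1 row 1, Fhl2 and Sparcl1, all 15 pairs were in more cells than the product of their shares. Of these 15, 9 had rho of at least 0.3, against 0.717% of all pairs of genes detected in at least 10 cells. Their median rho was 0.34. Within the 59 cells with Foxd1 the median of the 15 was 0.22, and 4 reached 0.3. The pairs of Rgs5 with Vcam1 and of Vcam1 with Sparcl1 were then at -0.05 and -0.01. The median rho was thus lower within the cells with Foxd1 than over all cells.

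**Figure D2:**
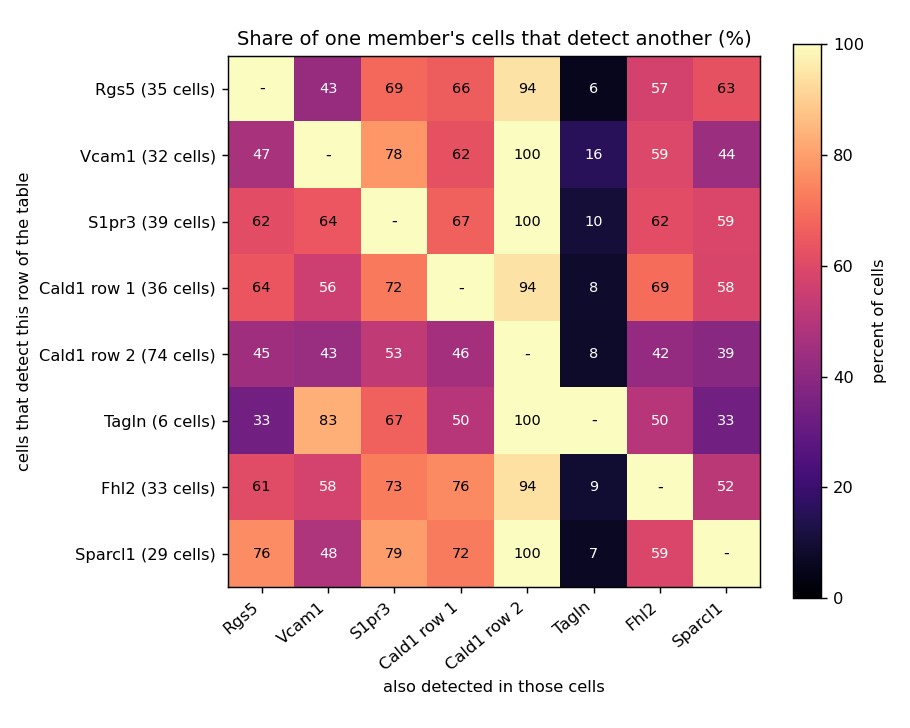
Percent of the cells that detect the member row on the vertical axis in which the member row on the horizontal axis was also detected, at an RPKM of at least 1. Of the cells with Sparcl1, 75.9% also detected Rgs5 and 79.3% S1pr3, while the column of Tagln stays below 20%.

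Every member was found in a larger share of cells with Foxd1 than of cells without. The cells fell into 27 with Foxd1 only, 32 with Foxd1 and Six2, 17 with Six2 only and 10 with neither. Their medians of detected genes were 6095, 6479, 5861 and 6106. Of the 26 cells with at least 4 members, 22 had Foxd1 and 4 did not: 14 were in the class with Foxd1 only, 8 in that with both, 1 in that with Six2 only and 3 in that with neither. Seen from the members, Foxd1 was detected in 31 of 32 cells with Vcam1, 35 of 39 with S1pr3, 29 of 33 with Fhl2, 31 of 36 with Cald1 row 1, 24 of 29 with Sparcl1 and 28 of 35 with Rgs5. Tagln had Foxd1 in 5 of its 6 cells. Over all 86 cells Foxd1 was detected in 59 (68.6%), and of the counts above that of Rgs5 (80.0%) lay closest to this. In a split at a difference of 20 percentage points, 7 of the 8 rows were above it in cells with Foxd1, against 4.14% of the 11204 genes whose mean RPKM was 1 or more. Tagln was the exception, at 8.47% of cells with Foxd1 and 3.70% of cells without.

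By the share of cells and by the ratio of means, Vcam1 had the largest contrast by Foxd1 among the members. By the mean of log2(RPKM + 1) Cald1 row 2 differed more, by 2.41 against 2.35. Vcam1 was detected in 31 of 59 cells with Foxd1 (52.5%, 39.1 to 65.7%) and in 1 of 27 without (3.70%, 0.0937 to 19.0%). Its RPKM ran from 0 over a median of 1.93 to 357 in cells with Foxd1, and from 0 over a median of 0 to 7.74 in cells without. The ranges overlap at the low end only: the 1 cell without Foxd1 that had Vcam1 was cell 71. In the 17 cells with Six2 only, Vcam1 was detected in 0, which allows a share of up to 17.6% by a limit of 3 counts and 19.5% by the exact interval. The mean was 28.5 ± 60.4 RPKM with Foxd1 and 0.325 ± 1.48 without (SD over cells), a log2 ratio of (mean RPKM + 1) of 4.48. Detection also went with the level of Foxd1: Vcam1 was in 1 of 27 cells with Foxd1 below 1 RPKM, in 12 of 31 between 1 and 10, and in 19 of 28 at 10 or above.

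S1pr3, Cald1 row 1, Fhl2 and Sparcl1 were also found more often with Foxd1, with smaller contrasts. S1pr3 was detected in 35 of 59 cells with Foxd1 and 4 of 27 without, with means of 30.6 ± 51.6 and 16.0 ± 49.0 RPKM and a log2 ratio of 0.89. Cald1 row 1 was in 31 of 59 and 5 of 27 cells, with means of 21.4 ± 38.3 and 7.08 ± 17.6 and a log2 ratio of 1.47. Fhl2 was in 29 of 59 and 4 of 27, with a log2 ratio of 0.93, and Sparcl1 in 24 of 59 and 5 of 27, with 0.87. For all of these the highest cells without Foxd1 reached well into the range of those with it: S1pr3 was at 221 RPKM in cell 4 and Fhl2 at 252 in cell 71, both without Foxd1. Cald1 row 2, found in most cells, had a log2 ratio of 1.61, and Tagln one of 1.53 that rests on 5 cells and 1 cell. In all, 4 of the 8 rows had a log2 ratio of at least 1, against 9.76% of all genes, and 1 had a ratio of -1 or below, against 5.92%. By the mean of log2(RPKM + 1), 5 of the 8 rows were higher by 1 or more, against 3.05% of genes.

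Rgs5 was the row below -1. It was detected in 28 of 59 cells with Foxd1 (47.5%, 34.3 to 60.9%) and in 7 of 27 without (25.9%, 11.1 to 46.3%). Yet its mean was 49.7 ± 112 RPKM with Foxd1 and 110 ± 270 without, a log2 ratio of -1.13. Fewer cells without Foxd1 had Rgs5, but those that did had much of it: their median where detected was 227 RPKM, against 65.6 in cells with Foxd1. Of the 4 cells with the highest Rgs5, 3 were below the limit for Foxd1. So were 4 of the 6 highest, 4 of the 10 highest and 5 of the 15 highest, against 27 of all 86. Those among the 6 highest were cell 71 with 1019 RPKM, cell 13 with 765, cell 4 with 719 and cell 30 with 227. Cells 15 and 46, at 730 and 358 RPKM, were the 2 of the 6 with Foxd1. The direction depends on how cells are averaged: the mean of log2(RPKM + 1) was higher with Foxd1, by 0.71. Without cell 71 alone the log2 ratio was -0.58.

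**Figure D3:**
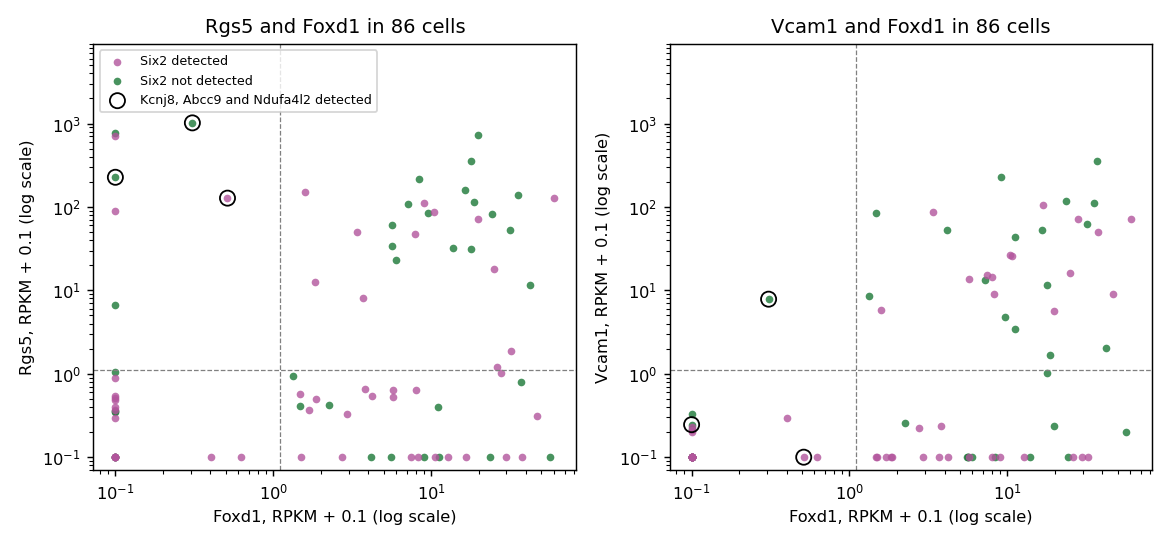
Rgs5 (left) and Vcam1 (right) against Foxd1 in 86 cells, each as RPKM + 0.1 on log axes, coloured by Six2 detection, with dashed lines at the detection limit. Cells with high Rgs5 lie on both sides of the Foxd1 limit, while cells with Vcam1 lie on the side with Foxd1, apart from 1; the 3 circled cells detect Kcnj8, Abcc9 and Ndufa4l2.

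In cells with Six2 the mean levels of the members were lower, by little for Tagln. Rgs5 was detected in 15 of 49 cells with Six2 (30.6%) and in 20 of 37 without (54.1%). Its RPKM ran from 0 over a median of 0.409 to 719 in cells with Six2, and from 0 over a median of 11.4 to 1019 in cells without, a log2 ratio of the means of -1.76. Cald1 row 1 was in 12 of 49 and 24 of 37 cells, with a log2 ratio of -1.78. By the ratio of means Sparcl1 had the largest contrast, with means of 3.62 ± 11.3 and 22.8 ± 48.1 RPKM and a log2 ratio of -2.36. By the share of cells, Cald1 row 1 had the largest, at -40.4 percentage points against -30.9 for Sparcl1. The ratios were -1.84 for Fhl2, -1.48 for Vcam1, -1.18 for S1pr3, -1.17 for Cald1 row 2 and -0.01 for Tagln. Thus 7 of 8 rows were at -1 or below, against 7.18% of the 11204 genes, and 0 were at 1 or above, against 6.37%. By the mean of log2(RPKM + 1), 6 of 8 were lower by 1 or more, against 1.7%. Rgs5, Cald1 row 1, S1pr3 and Sparcl1 were also over 20 percentage points lower in share, against 1.51% of genes.

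In cells with both Foxd1 and Six2, the share of each row apart from Tagln lay between those of cells with Foxd1 only and with Six2 only. Rgs5 was detected in 16 of 27 cells with Foxd1 only, 12 of 32 with both, 3 of 17 with Six2 only and 4 of 10 with neither. S1pr3 was in 21 of 27, 14 of 32, 1 of 17 and 3 of 10, and Sparcl1 in 16 of 27, 8 of 32, 2 of 17 and 3 of 10. The members were thus also found in cells with both genes. Tagln was in 2 of 27, 3 of 32, 1 of 17 and 0 of 10. The class with neither gene holds 3 of the 8 cells with ureteric bud genes, which had few members: Rgs5 in 2 of 8, S1pr3 and Sparcl1 in 1 each, and Vcam1, Cald1 row 1, Tagln and Fhl2 in 0, which allows up to 37.5% by the limit of 3 counts.

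**Figure D4:**
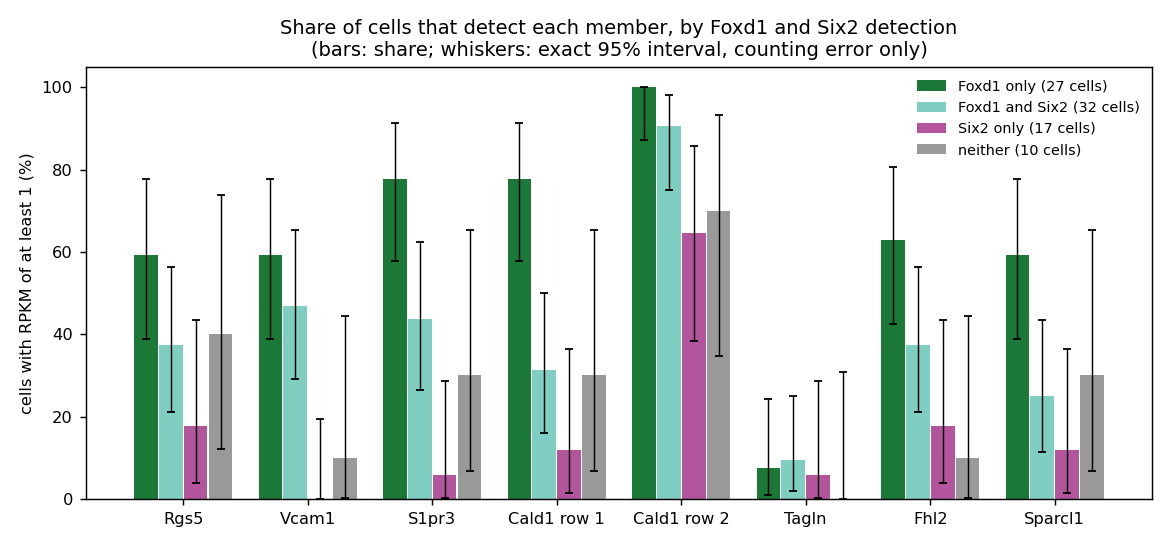
Share of cells that detect each member row, for cells with Foxd1 only (27), Foxd1 and Six2 (32), Six2 only (17) and neither (10). Bars are shares in percent and whiskers exact 95% intervals for counting error; Vcam1 falls to 0 of 17 in cells with Six2 only, and the class with Foxd1 only has the highest bar for all rows apart from Tagln.

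The label of mural genes was set against 24 further genes known from pericytes and vascular smooth muscle. Of these, 17 could be read. Cells with Rgs5 detected a median of 4 of the 17 (range 1 to 14), and cells without Rgs5 a median of 3 (0 to 9). Of the 14 with a mean RPKM of at least 1, 2 were higher in cells with Foxd1 (Ebf1 at 1.09 and Anpep at 1.03 on the log2 scale) and 3 were lower (Kcnj8 at -2.75, Cox4i2 at -1.77 and Heyl at -1.74), against 9.76% and 5.92% of all genes. Without the highest cell of each gene, Ebf1 was at 0.88 and Anpep at 0.75, while the 3 lower genes stayed below -1. Kcnj8 was detected in only 3 cells, all without Foxd1, so leaving out its highest cell says little about its ratio. The median ratio of the 14 was -0.03, beside 0.01 for all genes. Most cells with Rgs5 therefore did not carry the wider mural set.

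The exceptions were cells 71 and 30. They detected 14 and 13 of the 17 genes, while no other cell detected more than 9. Kcnj8 and Abcc9, neighbours on chromosome 6 that encode the pore and the regulatory subunit of the vascular ATP-sensitive potassium channel, and Ndufa4l2, a mitochondrial protein enriched in pericytes, were each detected in the same 3 cells: 71, 30 and 17. A gene was listed only where 3 or more cells passed an RPKM of 3. Genes confined to cells 71 and 30 could thus not be read. These 3 genes stood at the lowest number of cells that the rule allows, so their sharing of cells is a description only. All 3 cells had Rgs5, at 1019, 227 and 128 RPKM, and none reached the limit for Foxd1, at 0.207, 0 and 0.413. For Foxd1, 1 read was worth a median of 0.202 RPKM over the cells, so values of this size can come from single reads. Abcc9, Cox4i2 and Cspg4 were chosen for naming after their values were seen.

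Kcnj8 was at 82.2, 45.1 and 27.9 RPKM in cells 71, 30 and 17, Ndufa4l2 at 27.6, 17.1 and 29.6, and Abcc9 at 8.07, 25.8 and 3.07. Abcc9 stayed below 1 in all other cells. Cells 71 and 30 also had the receptor Pdgfrb at 55.9 and 102 RPKM, the Notch target Heyl at 186 and 61.1, smooth muscle actin Acta2 at 31.8 and 31.9, the proteoglycan Cspg4 at 21.8 and 5.90, and Cox4i2 at 31.7 and 30.5. Both lacked Six2, at 0. Stroma genes did not go one way in them. The receptor Pdgfra was at 3.50 and 0.0610 RPKM in cells 71 and 30, against a mean of 14.0 over all cells. The transcription factor Tcf21 was at 329 and 360 against a mean of 95.5, Meis1 at 211 and 48.3 against 128, and the collagen gene Col1a2 at 30.3 and 24.5 against 18.9. Cell 17 carried fewer of the set, 8, and differed from these in having Six2 at 45.8 RPKM and the most detected genes of all cells, 7100. Whether a chamber held more than 1 cell was not tested.

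As to the members, cells 71 and 30 had S1pr3 at 59.9 and 20.1 RPKM, Cald1 row 1 at 39.6 and 46.6 and Sparcl1 at 14.9 and 71.6, and Tagln was listed at 0 in both. Vcam1 was at 7.74 and 0.146, and Fhl2 at 252 and 0. Of the endothelial genes, Emcn was at 13.5 and 40.2 RPKM in cells 71 and 30, Egfl7 at 26.4 and 0, Plvap at 0 and 9.28, and Cldn5 at 0 in both. Cd68 was at 2.03 and 0. Over all cells, Emcn was in 7 of 35 cells with Rgs5 and 3 of 51 without, Cldn5 in 2 and 1, Egfl7 in 11 and 14 and Plvap in 2 and 3. The summed level of these 4 genes ran from 0 to 86.4 RPKM with Rgs5 and from 0 to 147 without. The macrophage gene Cd68 was in 6 of 35 and 1 of 51 cells. The part of such cells in the Rgs5 pattern was not tested.

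Leaving out cells 71 and 30 changed the relation to Foxd1. Then 7 of the 8 rows had a log2 ratio of at least 1 in cells with Foxd1, against 4 with all cells. Fhl2 moved to 2.07, Cald1 row 1 to 2.11, Sparcl1 to 1.49 and S1pr3 to 1.07, while Rgs5 stood at -0.46. The choice of these cells was made after seeing the data, and it fixes the direction of the shift for members that are high in them.

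**Figure D5:**
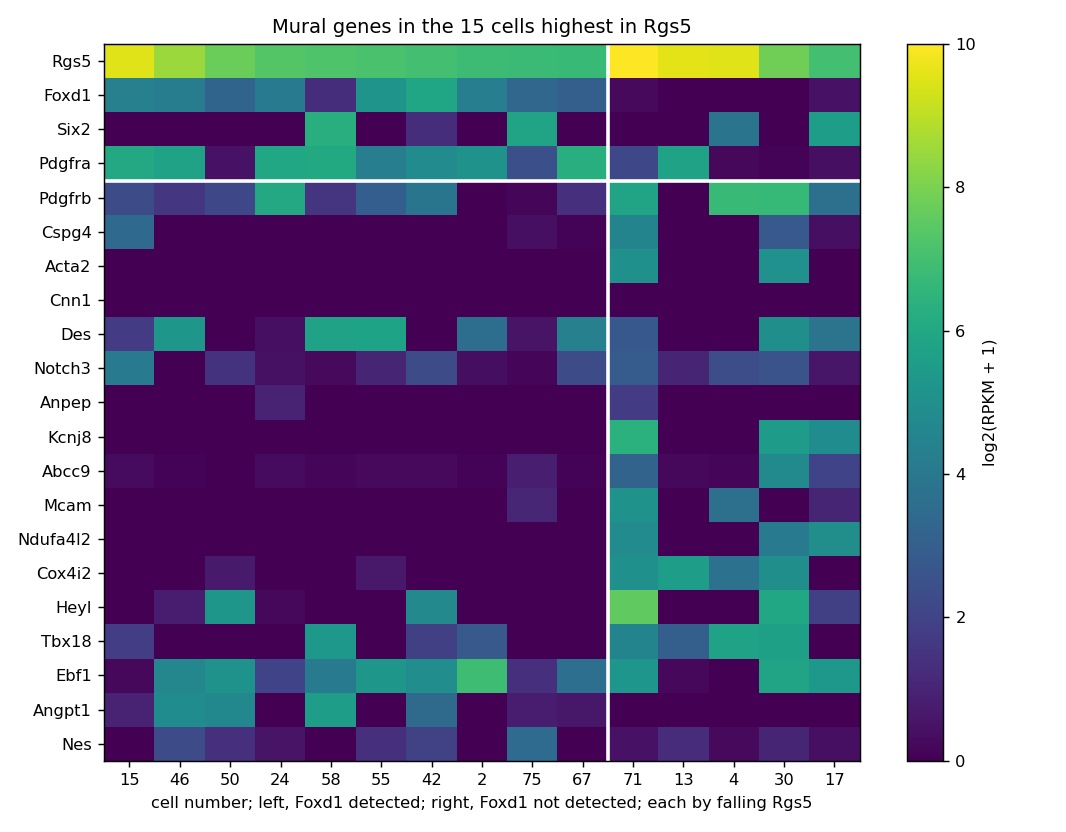
Rgs5, Foxd1, Six2, Pdgfra and the 17 mural genes that could be read, as log2(RPKM + 1), in the 15 cells with the highest Rgs5; the 10 cells with Foxd1 are on the left and the 5 without on the right. Kcnj8 and Ndufa4l2 are present in cells 71, 30 and 17 and at 0 in the other 12, and Acta2 is present in cells 71 and 30.

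The 28 cells with both Rgs5 and Foxd1 were set beside the 7 with Rgs5 and no Foxd1. Pdgfra was detected in 21 of 28 cells with both, at a median of 30.7 RPKM, and in 3 of 7 without Foxd1, at a median of 0.340. Vcam1 was in 14 of 28 and 1 of 7. Tbx18, a T-box factor of mural and ureteral mesenchyme cells, was in 6 of 28 and 4 of 7, and Pdgfrb in 17 of 28 and 4 of 7, with medians of 1.73 and 11.8 RPKM. Acta2 was in 1 of 28 and 2 of 7. Some genes were found at least as often without Foxd1. Of the stroma list, Tcf21 was in 24 of 28 and 7 of 7 cells, with medians of 62.5 and 266 RPKM. Meis1 was in 27 of 28 and 7 of 7, and Col1a2 in 23 of 28 and 6 of 7. Snai1, outside that list, was in 18 of 28 and 5 of 7. A lower share without Foxd1 was thus seen for Pdgfra and Vcam1, and not for these 4 genes. It was not confined to Pdgfra and Vcam1. Emilin1 was in 20 of 28 and 4 of 7 cells, and Nfib in 27 of 28 and 6 of 7. Of the members, S1pr3 was in 20 of 28 and 4 of 7, Cald1 row 1 in 19 and 4, and Fhl2 in 17 and 3. Sparcl1 went the other way, in 17 of 28 and 5 of 7.

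Among contractile genes, some were in most cells with Tagln and others in few. Myl9, Vcl and Cnn2 were each in 5 of the 6 cells with Tagln, against 40, 52 and 61 of all 86 cells. Acta2 was detected in 6 cells, and Tagln in 2 of them, cells 16 and 38. Cnn1 (calponin), a late smooth muscle gene, was in 3 cells, of which only cell 16 had Tagln, at 29.7 RPKM of Cnn1 and 1.67 of Acta2. Cell 38 had Tagln at 58.5 and Acta2 at 76.7 RPKM with Rgs5 at 0. The highest Acta2, 132 RPKM, was in cell 87, where Tagln and Rgs5 were at 0 and Cald1 row 1 was at 102. Rgs5 was in 2 of the 6 cells with Tagln, and in none of them was Kcnj8 detected. Rgs5 was in 3 of the 6 cells with Acta2, cells 71, 30 and 16, against 40.7% of all cells. The cells with Tagln had Vcam1 in 5 of 6 cases.

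Other actin-binding and contractile genes ranged from Mkl1 in 19 and Mylk in 23 cells to Myl6 and Tpm3 in all 86. Of 22 read at a mean of at least 1 RPKM, 4 were higher with Foxd1 and 2 lower, against 9.76% and 5.92% of all genes. The higher ones were Myl9 at 1.63, Myh10 at 1.36, Tpm1 at 1.28 and Vcl at 1.19 on the log2 scale. Myl9, the regulatory light chain of smooth muscle myosin, was in 31 of 59 cells with Foxd1 and 9 of 27 without. The kinase of that light chain, Mylk, was lower at -1.42, as was the serum response factor coactivator Mkl1 at -1.15. Without the highest cell of each gene these 2 were at -0.98 and -0.90. The median ratio of the list was 0.25. By rho with Rgs5, Cnn2 and Tagln2 were highest in the list at 0.34 each.

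In the RGS and sphingosine 1-phosphate lists, few further genes passed the limits used here, which is also so among all genes. Of 20 other RGS genes, 6 could be read and 5 had a mean of at least 1 RPKM: Rgs10 was higher with Foxd1, at 2.51, in 8 of 59 and 2 of 27 cells, and the median was 0.41. Rgs19 was the most abundant, in 26 of 35 cells with Rgs5 and 27 of 51 without. Of the sphingosine 1-phosphate list, 15 genes had a mean of at least 1. Of these, 1 was higher with Foxd1 and 1 lower, against 9.76% and 5.92% of all genes. The receptor S1pr2 was in 42 cells at a log2 ratio of 0.39, the exchange factor Arhgef1 was higher at 1.80, and the phosphatase Sgpp2 was lower at -1.17, or -0.17 without its highest cell. The related phosphatase Sgpp1, below that mean, was in only 5 cells, and all 5 had Rgs5, against 40.7% of all cells. Of the 14 genes of this list detected in at least 10 cells, 0 had a rho of at least 0.3 with Rgs5, against 1.44% of all such genes. For a list of this size, that is near the share of all genes.

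Receptors of Vcam1 and related adhesion genes had ratios closer to 0 than Vcam1 itself. Of 8 such genes none passed a log2 ratio of 1 in either direction, against 9.76% of all genes higher and 5.92% lower. For a list of 8 genes this is near those shares. Itga4, which with Itgb1 forms the main Vcam1 receptor, was in 11 cells at 0.53, Itgb1 in 84 at 0.27, and Itga9 in 71 at 0.89. In the LIM-only family, Fhl1 was at 0.82 and Fhl3 at 0.91. In the SPARC family, Spock3 at 2.11, Smoc2 at 1.89 and Fstl1 at 1.18 were higher with Foxd1, 3 of 6, while Sparc itself was in 85 cells at 0.35. Among stroma genes outside the members, 15 of 23 were higher with Foxd1, led by Ebf2 at 4.23 and Ntn1 at 2.51, against 9.76% of all genes, and 3 were lower, against 5.92%. Without the cell highest in each gene, 12 were higher and 0 lower. The lowest, Lum at -2.49, was in 3 of 59 cells with Foxd1 and 4 of 27 without, and its ratio rests on cell 13, at 889 RPKM: without that cell it was 0.022.

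The 10 genes whose levels were most like Rgs5 over the 86 cells hold none of the mural list, though Pdgfrb, at a rho of 0.41, lay close behind them. By Spearman's rho, among genes detected in at least 10 cells, Snai1 was first at 0.52, followed by Emilin1 and B2m at 0.50, Pdgfra at 0.46 and Zeb2 at 0.45. Tshz3, Ndfip2, Grk5, Asb4 and Maged2 completed the 10, at 0.44 or 0.45. Of the 10650 genes, 1.44% reached 0.3, among them S1pr3 as the 1 of 6 member rows, and 2 of 12 genes of the mural list, Pdgfrb and Ebf1 at 0.35. Snai1, a zinc finger repressor of epithelial genes, was in 23 of 35 cells with Rgs5, at a mean of 28.8 RPKM, and in 7 of 51 without, at 3.08. Emilin1, an elastic fibre protein, was in 24 of 35 and 15 of 51 cells. Asb4 averaged 61.2 RPKM with Rgs5 and 6.93 without.

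Among the genes most like the other members were Col3a1, Col1a2, Ecm1 and Nfia of the stroma list. Vcam1 was near to Nfib at 0.65 and Lgals1 at 0.63, and S1pr3 was nearest to Tmsb4x at 0.63, Col3a1 at 0.62 and Col1a2 at 0.61. Lgals1, a secreted lectin, led for Cald1 row 1 at 0.62, for Cald1 row 2 at 0.78 and for Fhl2 at 0.55. Nfib, a nuclear factor I gene, was in 32 of 32 cells with Vcam1 and 33 of 54 without, and Nfia was in 29 of 29 cells with Sparcl1 and 28 of 57 without. Sparcl1 was nearest to Maged2 at 0.56, Lrp1 at 0.55 and Nfia at 0.54. Tagln was nearest to Pus7 at 0.44, which rests on 6 cells.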

How the data were processed

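RNA was measured in 86 single cells of 1 pool. The deposited values are RPKM per gene and cell, scaled by the authors and used as they are on the linear scale. Per the file headers, a gene was listed where 3 or more cells passed an RPKM of 3. TopHat 1.4.1, DESeq and the build mm9 stand in the submitters' processing notes without a role. The authors' further table of 450 genes lists no member and was not used.

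The members and all gene lists were chosen with earlier results of these data known. Genes named are the members, Foxd1 and Six2, the 10 most like Rgs5 and the 3 most like each other member (1 of these for Vcam1 is not reported here), and from each list up to 2 at either end of the Foxd1 ratio and, for 6 lists, up to 6 of highest mean. Abcc9, Cox4i2, Cspg4, Cnn1, Tagln2, Vcl, Itga4, Itgb1, S1pr2 and Alx1 fall outside this rule and were chosen after their values were seen. Ratios are log2 of (mean RPKM + 1), and the share of all genes past a limit is over genes with a mean of at least 1. With 1 pool no test was made. No doublet caller was run, and 5 cells with few genes were kept. The calculations were tested on simulated data. The tools were scipy 1.17.1, pandas 2.3.3 and numpy 2.4.6, with figures by matplotlib 3.10.9 under Python 3.11.15. The alternatives tried were other detection limits, a pseudocount of 0.1, mean log2 values, other filters on genes, Pearson's r, and leaving out cells, with the highest cell of each named list gene among them.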

Additional observations from a re-analysis of the deposited data

How the results depend on the processing

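At a detection limit of 0.1 RPKM, which counts single reads, 45 cells had at least 4 members (26 at a limit of 1) and 31 had both Rgs5 and Vcam1 (15 at a limit of 1). At a limit of 10 RPKM, 9 cells had both. The log2 ratio of Rgs5 in cells with Foxd1 over cells without, -1.13, turned to 0.11 at a limit of 10 RPKM and to 0.71 with the mean of log2 values. At limits of 0.1 and 3 RPKM it was -0.28 and -0.51. That of Fhl2 went from 0.93 to 4.12 at a limit of 0.1 RPKM. With limits of 0.1, 3 and 10 RPKM, Vcam1 went from 4.48 to 4.75, 3.15 and 2.01. Cald1 row 1 went from 1.47 to 2.24, 0.67 and 0.32, and Cald1 row 2 from 1.61 to 1.71, 1.45 and 0.86. Without the cells of at least 10 mural genes, an alternative added after seeing the data, 7 rows in place of 4 were at a log2 ratio of 1 or above by Foxd1. Without the cell highest in the gene, also added after seeing the data, the log2 ratio of Lum by Foxd1, -2.49, turned to 0.022. Of the 10 genes most like Rgs5, 3 were named again with Pearson's r of log2 values and 4 within the cells with Foxd1. The cause of these changes was not tested. Of 34 recomputed counts that answer a comparison, the other 28 stayed within 1.5 times. With the limits of 0.1, 3 and 10 RPKM, 5, 7 and 8 rows were at a log2 ratio of -1 or below by Six2, against 7 at a limit of 1. By Foxd1, 5, 6 and 4 rows were at 1 or above with these limits, against 4 at a limit of 1. No paired analysis was possible because all cells form 1 group from 1 pool. Reads per cell are few for low genes, so a member at 0 in a cell may be present and unread, and the RPKM behind a single read differed 20.2-fold between the shallowest and the deepest cell.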

Other observations

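Genes of cell division and of the immediate early response were also set beside Rgs5. None of the 17 genes of the G2/M list had a rho of at least 0.3 with Rgs5 over the 86 cells, and their median rho was -0.05. Of all 10650 genes detected in at least 10 cells, 1.44% reached 0.3, and the median was 0.02. For lists of this size, none reaching 0.3 is near that share. A median of 15 of these genes was detected in cells with Rgs5 and a median of 15 in cells without. Of the immediate early genes detected in at least 10 cells, none reached 0.3 either, with a median rho of 0.12. Nephron progenitor genes had a median rho of -0.17, and cells with Rgs5 detected a median of 7 of 16 of them, against 12 in cells without.

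Alx1, a homeobox gene of the stroma list, was detected in 12 of 35 cells with Rgs5 and in 4 of 51 without. It was in 11 of 59 cells with Foxd1 and in 5 of 27 without.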
